A study of Mus musculus with 29 samples.

Results

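The genes described here are 9 genes of GABAergic interneurons, followed in the E17.5 mouse cortex after loss of the BAF chromatin-remodelling complex. They were taken by name: Gad1, Gad2, Dlx1, Dlx2, Dlx5, Dlx6, Lhx6, Sst and Nkx2-1, which are 9 of the 38355 genes in the count tables of the untreated libraries and 9 of the 48709 in those of the treated libraries. RNA was sequenced from 5 groups of C57BL/6J embryos. The untreated groups were 4 control and 3 dcKO pallia. In dcKO embryos both Baf155 (Smarcc1) and Baf170 (Smarcc2) are floxed and deleted by hGFAP-Cre, and per the study's methods the controls carry 1 floxed copy of each gene together with the same Cre, so that they are heterozygous for both deletions and not wild type. The treated groups were 4 wild-type (WT) cortices given vehicle, 4 dcKO cortices given vehicle and 4 dcKO cortices given the Wnt inhibitor ICG-001 (WNTi), which was injected daily into the pregnant mother. No WT cortex with inhibitor was analysed, so the effect of the inhibitor can be read in dcKO cortex alone. H3K27me3, a histone mark of genes silenced by Polycomb, was mapped by ChIP-seq in 4 control and 4 dcKO pallia. The deposited genotype of every untreated and ChIP-seq sample reads dcKO, and the groups were therefore read from the letters in the sample titles.

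Cortical GABAergic interneurons are not born in the cortex. They arise in the ganglionic eminences of the ventral forebrain and migrate tangentially into the pallium, whereas the glutamatergic neurons are born locally from pallial radial glia. The hGFAP-Cre driver is active in the pallial progenitors, medially first and then dorsally and laterally, so interneurons that reach the cortex come for the most part from cells outside the recombined lineage. Among the 9 genes, Gad1 and Gad2 encode the enzymes that make GABA, the Dlx genes encode homeodomain factors of subpallial progenitors and young GABAergic neurons, Nkx2-1 specifies the medial ganglionic eminence, Lhx6 acts downstream of it in migrating interneurons, and Sst encodes the peptide somatostatin. In bulk tissue, fewer cells of a type and less RNA per cell cannot be told apart.

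In GRCm38 (mm10) coordinates the genes lie on 4 chromosomes. Gad1 (chr2:70553072-70602014, plus strand), Dlx1 (chr2:71528113-71533981, plus strand) and Dlx2 (chr2:71543408-71546754, minus strand) are neighbours on chromosome 2, which also carries Gad2 (chr2:22622205-22693874, plus strand) and Lhx6 (chr2:36081953-36105408, minus strand). Dlx5 (chr6:6877805-6882085, minus strand) and Dlx6 (chr6:6863334-6868568, plus strand) form the second Dlx pair. Sst lies at chr16:23889573-23890958 on the minus strand and Nkx2-1 at chr12:56531958-56536908 on the minus strand. The libraries do not keep strand, so reads of Dlx1 and its antisense gene Dlx1as, and of Dlx6 and Dlx6os1, cannot be told apart where they overlap. RefSeq promoter windows (GRCm38.p6) were matched for 7 of the 9 genes, in 9 windows. Dlx5 and Dlx6 have no printed window. The 250 bases before the start of 4 genes are shown because all 4 starts carried H3K27me3 but over stretches of very different length, longest at Dlx1 and Dlx2 and shortest at Sst. Capitals mark CG dinucleotides, a search added after the values were seen.
Dlx1, chr2:71529195-71529444, plus strand: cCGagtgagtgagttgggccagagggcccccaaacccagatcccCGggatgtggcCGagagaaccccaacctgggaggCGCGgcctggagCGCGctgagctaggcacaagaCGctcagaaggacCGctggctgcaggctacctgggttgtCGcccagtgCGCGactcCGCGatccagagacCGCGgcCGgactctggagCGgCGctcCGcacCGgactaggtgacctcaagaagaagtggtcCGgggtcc
Dlx2, chr2:71546755-71547004, minus strand: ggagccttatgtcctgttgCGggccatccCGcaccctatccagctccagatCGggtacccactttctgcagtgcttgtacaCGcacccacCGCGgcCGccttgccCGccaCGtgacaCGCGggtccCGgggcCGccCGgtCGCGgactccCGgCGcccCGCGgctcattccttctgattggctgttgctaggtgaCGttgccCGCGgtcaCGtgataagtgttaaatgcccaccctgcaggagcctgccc
Gad2, chr2:22622077-22622326, plus strand: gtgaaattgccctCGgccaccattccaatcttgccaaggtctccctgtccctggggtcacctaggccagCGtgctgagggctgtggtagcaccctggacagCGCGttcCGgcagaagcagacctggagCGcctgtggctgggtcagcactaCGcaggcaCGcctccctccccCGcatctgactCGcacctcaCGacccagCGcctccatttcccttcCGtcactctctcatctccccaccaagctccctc
Sst, chr16:23890845-23891094, minus strand: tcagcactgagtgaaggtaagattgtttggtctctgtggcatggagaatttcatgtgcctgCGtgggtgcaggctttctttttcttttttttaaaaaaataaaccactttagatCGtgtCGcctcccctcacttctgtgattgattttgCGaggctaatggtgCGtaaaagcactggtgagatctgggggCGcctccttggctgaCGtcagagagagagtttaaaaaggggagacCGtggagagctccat
Dlx2 holds 24 CG dinucleotides, Dlx1 22, Gad2 13 and Sst 8, against a median of 6 over 32851 promoters. The Sst promoter also holds TGACGTCA, the cAMP response element, with its first base 48 bases before the start. The motif, a palindrome and so the same on both strands, occur in 1.79% of the 32851 windows of 300 bases. TAATTA, the homeodomain core motif and also a palindrome, was found in 0 of the 9 windows and in 5.29% of all promoters.

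Assigned counts ranged from 11946658 to 28391046 per untreated library and from 12514443 to 26600594 per treated library, and all 9 genes passed the filter on low counts in both experiments. The deleted genes were examined first. Smarcc1 stood at 49.8% to 65.1% of the control mean in 7 of the 11 libraries labelled dcKO, and at 80.5% to 95.4% in the other 4, which are the libraries labelled untreated dcKO replicate 2, dcKO vehicle replicate 2 and dcKO WNTi replicates 1 and 2. Smarcc2 stood at 56.8% to 80.1% in the 7 libraries and at 88.1% to 98.3% in the 4. A limit of 80% was set after these values were seen. WNTi replicate 1, at 80.5% and below every control library, is just above it, and the nearest library under it is at 65.1%. A slightly higher limit would thus move WNTi replicate 1 out of the 4. These 4 libraries, called the libraries in doubt, go against their label to different degrees, and results are given with and without them, the latter by an alternative added after the data were seen. Same-numbered libraries of the untreated and the vehicle experiments also resembled each other across 15220 genes: 7 of 7 were closest to their own number, with correlations of their deviations from the group mean of 0.204 to 0.546 in controls and 0.592 to 0.789 in dcKO. The labels do not say whether they share embryos, so agreement between the 2 experiments is not counted as independent replication.

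Per kilobase of exon, Sst had the highest level and Nkx2-1 the lowest in all 5 groups. In untreated controls the mean RPKM (reads scaled by exon length and library size) was 62.6 ± 9.79 (SD, n = 4) for Sst, 37.1 ± 3.23 for Dlx1 and 24.4 ± 0.557 for Lhx6, and the ranges of these 3 genes did not overlap. Gad1 at 15.5 ± 2.55, Gad2 at 15.3 ± 1.93 and Dlx2 at 13.7 ± 1.44 overlapped and do not differ beyond their spread. Dlx5 followed at 6.34 ± 1.12, Dlx6 at 2.60 ± 0.694 and Nkx2-1 at 1.05 ± 0.182, each below the range of the gene before it. The order of the first 3 and the last 3 genes was the same in every group. Nkx2-1 and Dlx6 also had few reads, 13 to 398 and 38 to 437 per library, so their values are the least precise. Vip and Pvalb, which mark interneuron classes that mature after birth, were at or below 0.181 CPM (counts scaled to library size) in every library.

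**Figure D1:**
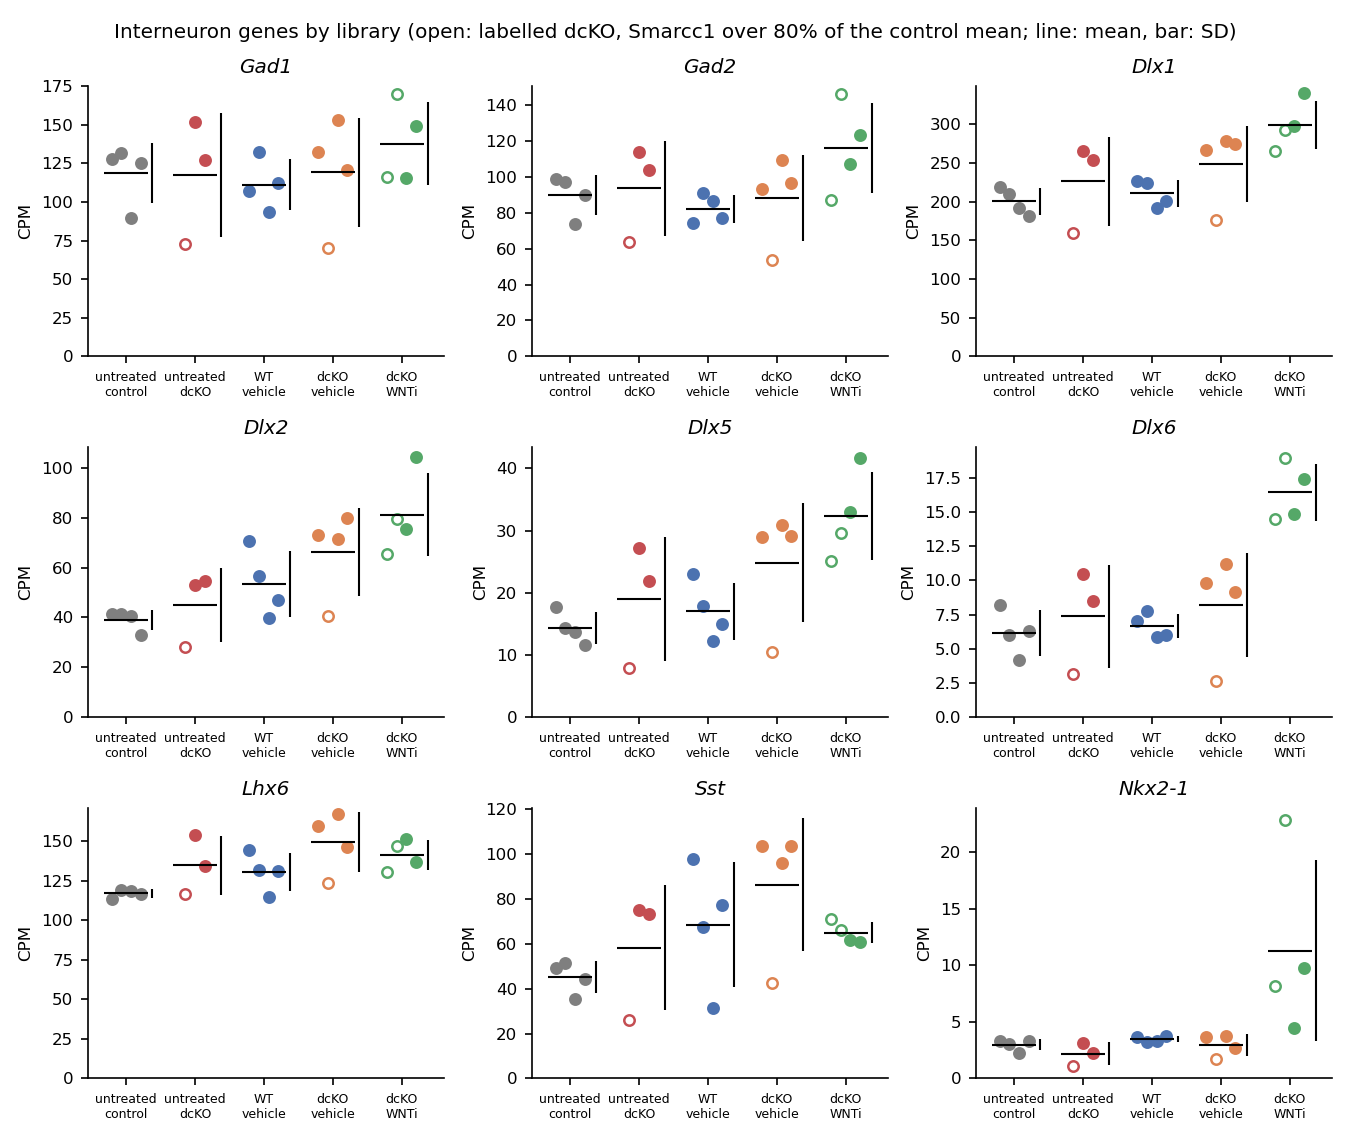
CPM of the 9 genes in each of the 19 RNA libraries by group, with 1 panel and a linear axis from 0 for each gene, a line at the group mean, a bar for the SD and open symbols for the 4 libraries labelled dcKO whose Smarcc1 was over 80% of the control mean. Untreated dcKO replicate 2 and dcKO vehicle replicate 2 are the lowest of their groups for all 9 genes, and the WNTi libraries are the highest for Dlx6 and Nkx2-1.

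The first comparison asked how these genes stood in the untreated dcKO pallium. In 2 of the 3 dcKO libraries most of the genes were above the controls, and in the third, the one with Smarcc1 at 95.4% of the control mean, most were below them. Dlx5 stood at 17.7, 14.4, 13.7 and 11.6 CPM in controls 1 to 4 and at 7.98, 27.3 and 21.9 CPM in dcKO replicates 2, 3 and 4. Sst stood at 49.0, 51.6, 35.6 and 44.3 CPM in controls and at 26.2, 75.3 and 73.4 CPM in dcKO. For both genes dcKO replicate 2 was below every control and the others above every control. Dlx1 gave 219, 210, 191 and 181 CPM in controls and 160, 265 and 253 CPM in dcKO, with the same order. Lhx6 differed less, with 113 to 119 CPM in controls and 116, 154 and 134 CPM in dcKO. Dlx2, with 33.0 to 41.5 CPM in controls, gave 28, 52.9 and 54.5 CPM in dcKO, and Dlx6, with 4.16 to 8.19 CPM, gave 3.19, 10.4 and 8.48 CPM. The genes for GABA synthesis differed less. Gad1 ranged from 89.6 to 132 CPM in controls and gave 73.0, 152 and 127 CPM in dcKO, and Gad2 ranged from 73.8 to 98.7 CPM and gave 63.5, 114 and 104 CPM. Nkx2-1 stood at 3.32, 3.06, 2.24 and 3.34 CPM in controls and at 1.09, 3.14 and 2.26 CPM in dcKO. With all libraries the groups of every gene overlapped.

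With all 7 libraries, 0 of the 9 genes passed an adjusted p under 0.05 in edgeR's quasi-likelihood test, against 0.00634% of the 15770 genes tested. At an unadjusted p under 0.05 there was 1, Lhx6 (log2 fold change 0.21, SE 0.085, adjusted p = 0.281), against 16% of all genes, and DESeq2 called 0 against 3.42%. The median log2 fold change over the 9 genes was 0.21, against 0.00 over all genes, and 7 of 9 were above 0. Thus 0 of 9 genes had groups that did not overlap, against 13.2% of all genes. Without the library labelled dcKO replicate 2, 5 of 9 rose, against 12.4% of all genes called and 5.57% called higher, and 0 fell. They were Dlx5 (0.78, SE 0.15, adjusted p = 0.0101), Sst (0.72, SE 0.12, adjusted p = 0.00566), Dlx2 (0.46, SE 0.096, adjusted p = 0.0120), Dlx1 (0.37, SE 0.077, adjusted p = 0.0118) and Lhx6 (0.30, SE 0.065, adjusted p = 0.0141). Values that did not pass in that fit were 0.62 (SE 0.22) for Dlx6, 0.27 (SE 0.11) for Gad2, 0.24 (SE 0.15) for Gad1 and -0.14 (SE 0.22) for Nkx2-1. The median of the 9 was then 0.37, against -0.00 over all genes. This fit compares 2 dcKO libraries with 4 controls, and the calls rest on leaving out that 1 library.

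The second comparison set the vehicle-treated dcKO cortex against vehicle-treated WT cortex. For Dlx1, Dlx5 and Dlx6, 3 of the 4 dcKO libraries stood above the WT libraries and replicate 2 below them. Dlx5 stood at 23.0, 17.8, 12.2 and 15 CPM in WT vehicle libraries 1 to 4 and at 28.9, 10.5, 30.9 and 29.1 CPM in dcKO vehicle. Dlx1 stood at 227, 224, 192 and 200 CPM in WT and at 267, 176, 279 and 275 CPM in dcKO. Dlx6 gave 7.06, 7.78, 5.87 and 6.01 CPM in WT and 9.79, 2.63, 11.2 and 9.18 CPM in dcKO. In all 3 genes dcKO vehicle replicate 2 was below every WT library and the other 3 above every WT library. Dlx2 gave 70.6, 56.6, 39.9 and 47.0 CPM in WT and 72.9, 40.4, 71.5 and 79.9 CPM in dcKO, with replicate 2 inside the WT range. Sst varied more among the WT libraries, at 97.9, 67.6, 31.6 and 77.6 CPM, and gave 104, 42.4, 96.0 and 104 CPM in dcKO, with overlap. Gad1 gave 107, 133, 93.2 and 112 CPM in WT and 133, 70.4, 153 and 121 CPM in dcKO, and Gad2 74.4, 90.9, 86.8 and 76.8 CPM in WT and 93.0, 53.8, 110 and 96.7 CPM in dcKO. For Gad2 the 3 dcKO libraries other than replicate 2 were above all WT libraries, by a narrow margin. Nkx2-1 was within 3.22 to 3.72 CPM in WT and gave 3.65, 1.69, 3.79 and 2.66 CPM in dcKO.

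Across the 8 libraries, 0 of 9 genes passed in edgeR, against 0.00611% of the 16372 genes tested. None had an unadjusted p under 0.05, against 9.46%, DESeq2 called 0, against 0.733%, and 0 had groups that did not overlap, against 5.66%. The median log2 fold change was 0.24, against -0.00 over all genes, and 8 of 9 were above 0. The values ran from -0.24 (SE 0.41) for Nkx2-1 to 0.54 (SE 0.29) for Dlx5. Without the 3 treated libraries whose Smarcc1 was over 80% of the control mean, 3 of 9 rose, against 5.82% of all genes called and 2.47% called higher. They were Dlx5 (0.79, SE 0.18, adjusted p = 0.0314), Dlx6 (0.59, SE 0.14, adjusted p = 0.0382) and Dlx1 (0.37, SE 0.091, adjusted p = 0.0393). Sst at 0.55 (SE 0.28, adjusted p = 0.363), Dlx2 at 0.48 (SE 0.18, adjusted p = 0.196) and Lhx6 at 0.27 (SE 0.098, adjusted p = 0.166) did not pass. Leaving out dcKO vehicle replicate 2 alone gave 1 call, Dlx5, with 222 of 16526 genes called higher and 340 lower.

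The dcKO effect in the vehicle experiment was set against that in the untreated experiment by an interaction term over the 15 libraries of both, which takes all libraries as independent. The difference of log2 fold changes lay between -0.05 (Sst, SE 0.52) and 0.17 (Nkx2-1, SE 0.40) for the 9 genes. None passed, at an adjusted or an unadjusted p under 0.05, against 0% and 0.544% of all genes, and DESeq2 also called 0. With the replicate number shared by both experiments as a block within each genotype, an alternative added after the data were seen, the differences lay between -0.08 (Dlx6, SE 0.21) and 0.12 (Nkx2-1, SE 0.19), and again 0 of 9 passed at an adjusted or an unadjusted p under 0.05, against 0% and 1.01% of all genes. Standard errors for the 9 genes were 0.14 to 0.56 without and 0.077 to 0.25 with the block.

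**Figure D2:**
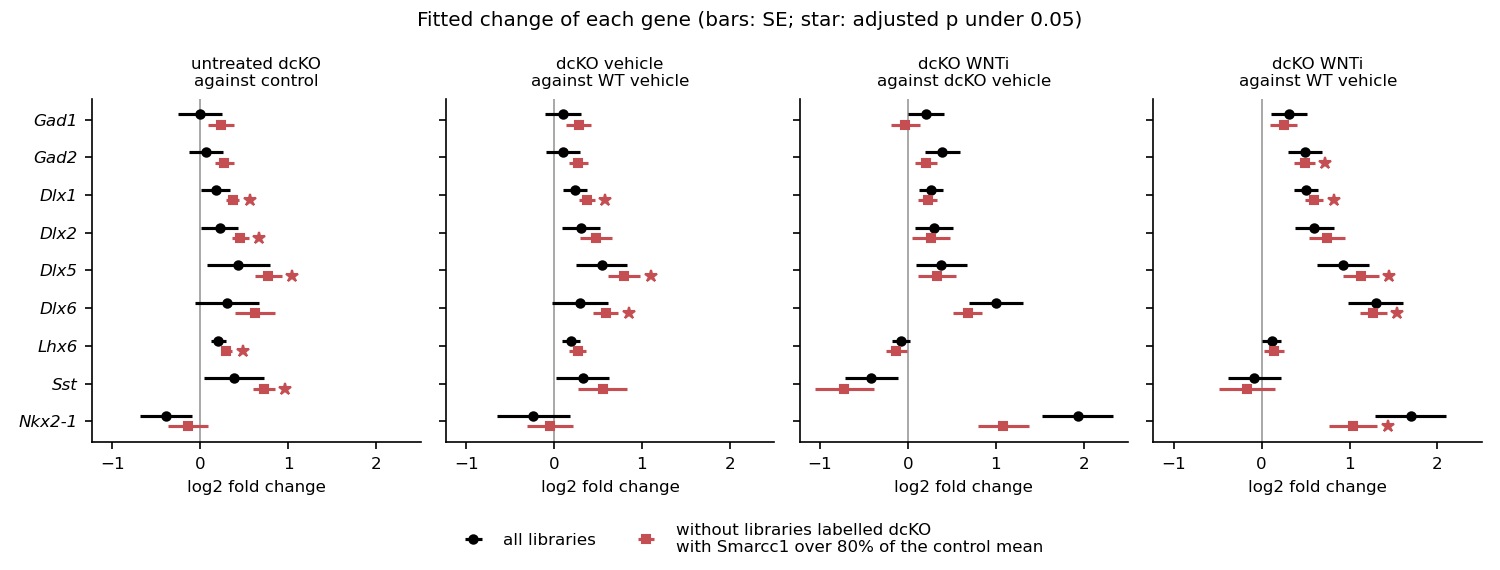
Log2 fold change (x axis) with a bar for its standard error for each of the 9 genes in the 4 comparisons, with all libraries and without the 4 libraries labelled dcKO whose Smarcc1 was over 80% of the control mean, and stars at an adjusted p under 0.05. Leaving these out moves Sst from 0.39 to 0.72 in untreated dcKO and from -0.41 to -0.72 in WNTi against dcKO vehicle, and Nkx2-1 from 1.93 to 1.09 in the latter.

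The third comparison asked what the Wnt inhibitor changed in dcKO cortex. Nkx2-1 and Dlx6 stood higher in all 4 WNTi libraries than in any dcKO vehicle library, and the Sst values lay inside the vehicle range. Nkx2-1 gave 8.19, 22.9, 4.42 and 9.81 CPM in WNTi libraries 1 to 4, against 1.69 to 3.79 CPM in dcKO vehicle. Dlx6 gave 14.5, 18.9, 14.9 and 17.4 CPM, against 2.63 to 11.2 CPM. The 4 WNTi values of Nkx2-1 had an SD of 8.01 CPM, against 0.978 CPM in dcKO vehicle, and replicate 2, the highest, is one of the libraries in doubt. Sst gave 71.2, 66.1, 61.7 and 60.8 CPM with WNTi, against 42.4 to 104 CPM in dcKO vehicle. Lhx6 gave 131 to 151 CPM with WNTi and 124 to 167 CPM with vehicle. Gad1 gave 116, 170, 116 and 149 CPM with WNTi and Dlx2 65.5, 79.4, 75.3 and 105 CPM, both overlapping the vehicle libraries.

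In edgeR, 0 of 9 genes passed, against 0.055% of all genes, and 2 had an unadjusted p under 0.05, against 15.8%. These were Nkx2-1 (log2 fold change 1.93, SE 0.40, adjusted p = 0.130) and Dlx6 (1.0, SE 0.31, adjusted p = 0.191). They were also the 2 genes whose groups did not overlap, against 8.51% of all genes. DESeq2 called 1, Nkx2-1 (adjusted p = 0.000666), against 2.07%. The median of the 9 genes was 0.30, against 0.01 over all genes, with 7 above 0. Without the 3 treated libraries in doubt 0 of 9 passed, against 1.02%, and Nkx2-1 stood at 1.09 (SE 0.29, adjusted p = 0.0983), Dlx6 at 0.68 (SE 0.16, adjusted p = 0.0749) and Sst at -0.72 (SE 0.34, adjusted p = 0.296). That Sst value sets 61.7 and 60.8 CPM in WNTi replicates 3 and 4 against 104, 96.0 and 104 CPM in the dcKO vehicle libraries kept. Leaving out single libraries gave 1 call, Dlx6 (0.71) without dcKO vehicle replicate 2 or Nkx2-1 (1.34) without WNTi replicate 2. Over all genes the former fit called 105 of 16526 higher and 75 lower, and the latter 143 of 16621 higher and 277 lower.

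The last comparison set WNTi-treated dcKO cortex against WT vehicle. The highest value of each Dlx gene over the 19 libraries was in a WNTi library. Dlx5 gave 25.1, 29.6, 33.0 and 41.7 CPM with WNTi, against 12.2 to 23.0 CPM in WT vehicle. Dlx1 gave 265, 293, 298 and 340 CPM, against 192 to 227 CPM, and Dlx6 14.5 to 18.9 CPM, against 5.87 to 7.78 CPM. For these 3 genes and Nkx2-1 the groups did not overlap, which is 4 of 9, against 7.49% of all genes. Gad2 gave 87.1, 146, 107 and 124 CPM with WNTi and 74.4 to 90.9 CPM in WT, with WNTi replicate 1 inside the WT range.

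Again 0 of 9 genes passed in edgeR, against 0.0977% of all genes. At an unadjusted p under 0.05 there were 6, all higher, against 19.8%: Dlx6 (1.30, SE 0.31, adjusted p = 0.0826), Nkx2-1 (1.70, SE 0.40, adjusted p = 0.0812), Dlx1 (0.51, SE 0.14, adjusted p = 0.102), Dlx5 (0.93, SE 0.29, adjusted p = 0.135), Dlx2 (0.60, SE 0.22, adjusted p = 0.174) and Gad2 (0.50, SE 0.20, adjusted p = 0.198). DESeq2 called 4, against 4.48%, which were Nkx2-1 (adjusted p = 0.00274), Dlx6 (0.00482), Dlx1 (0.0272) and Dlx5 (0.0426). The median was 0.51, against 0.01 over all genes. Lhx6 (0.11, SE 0.11), Gad1 (0.31, SE 0.20) and Sst (-0.08, SE 0.30) stayed nearer to 0. Without the libraries in doubt 5 of 9 rose, against 7.38% of all genes called and 2.66% called higher: Dlx6 (1.27, SE 0.15, adjusted p = 0.00280), Dlx1 (0.60, SE 0.10, adjusted p = 0.00934), Dlx5 (1.13, SE 0.20, adjusted p = 0.0112), Gad2 (0.49, SE 0.12, adjusted p = 0.0360) and Nkx2-1 (1.04, SE 0.28, adjusted p = 0.0489). Leaving out dcKO vehicle replicate 2, which is in neither group but shares the fit, gave 3 calls (Dlx1, Dlx5 and Dlx6). Over all genes that fit called 63 of 16526 higher and 66 lower. Leaving out WNTi replicate 2 gave 2 calls (Dlx6 and Nkx2-1), with 563 of 16621 genes called higher and 890 lower. This comparison and the former share the 4 WNTi libraries. Only WNTi replicates 3 and 4 remain in the fits without the libraries in doubt. Of these, replicate 4 had Smarcc1 at 65.1% and Smarcc2 at 80.1% of the WT vehicle mean.

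Genes on lists of interneuron factors, peptides and GABA handling did not all follow the 9 genes. Whether these genes are also expressed in other cells of the tissue was not tested, so a lower value need not come from interneurons. With all libraries 0 genes of these lists passed in edgeR in any comparison, against the percentages of all genes given above. The following counts are those without the libraries in doubt. In those fits edgeR called 12.4% of all genes in untreated dcKO and 5.82% in dcKO vehicle. In WNTi against dcKO vehicle it called 1.02%, and in WNTi against WT vehicle 7.38%. Of 18 factors and migration genes, 5 rose and 2 fell in untreated dcKO, with a median log2 fold change of 0.15. Sp9, a zinc finger factor of subpallial progenitors and their neurons, rose by 0.86 (SE 0.13, adjusted p = 0.00203), Dlx1as by 0.49 and the neurexophilin gene Nxph1 by 0.34, and Zeb2 fell by 0.37. Sp9 gave 30.4 and 23.8 CPM in dcKO replicates 3 and 4 and 12.9 to 16.8 CPM in controls. In dcKO vehicle 1 factor rose (Sp9) and 1 fell (Htr3a), and in WNTi against WT vehicle Sp9 rose by 1.31 and no factor fell.

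Of 8 peptides and calcium-binding proteins 6 could be tested. Nos1, the neuronal nitric oxide synthase, fell in untreated dcKO (-0.44), dcKO vehicle (-0.41), WNTi against dcKO vehicle (-0.53) and WNTi against WT vehicle (-0.93), the last 3 of which share libraries. Cck fell by 0.53 in untreated dcKO, and Reln by 0.58 in WNTi against WT vehicle. None of the 6 rose in any comparison. Of the 4 genes for GABA transport and breakdown, the vesicular transporter gene Slc32a1 (0.40, adjusted p = 0.0609) and Abat (0.43, adjusted p = 0.0791) did not pass in untreated dcKO. Slc6a11, a GABA transporter gene, fell in WNTi against WT vehicle (-0.69, adjusted p = 0.0469) and stood at -0.27 to -0.36 in the other comparisons without passing. Among subpallial progenitor factors, Gsx1 (2.37) and Gsx2 (0.87) rose in untreated dcKO. Gsx1 also rose in dcKO vehicle (2.19) and in WNTi against WT vehicle (2.71), from levels of 0.214 to 0.665 CPM in controls.

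Markers of neighbouring cell types were followed in the same libraries. Of 13 striatal genes, 10 had an unadjusted p under 0.05 and were higher with WNTi than in dcKO vehicle with all libraries, against 15.8% of all genes in either direction, and the list's median log2 fold change was 1.32. In untreated dcKO and dcKO vehicle 1 striatal gene was higher and 1 lower at that threshold, with medians of -0.07 and -0.04. In WNTi against WT vehicle 8 were higher and 1 lower at it, against 19.8% of all genes, with a median of 1.2. Without the libraries in doubt 1 rose and 1 fell in untreated dcKO, against 12.4% of all genes called. In dcKO vehicle 2 rose and 0 fell, against 5.82%, and in WNTi against dcKO vehicle 2 rose and 0 fell, against 1.02%. In WNTi against WT vehicle 8 rose and 0 fell, against 7.38% called and 2.66% called higher, with a median of 1.19. The summed level of the 13 striatal genes was 114 to 164 CPM in controls, 82.5 to 224 CPM in untreated dcKO, 122 to 172 CPM in WT vehicle, 91.9 to 255 CPM in dcKO vehicle and 220 to 323 CPM with WNTi. Ppp1r1b, a gene of the list, stood at 98.7 and 101 CPM in untreated dcKO replicates 3 and 4 against 21.9 to 30.9 CPM in controls. Without it the other 12 genes summed to 83.1 to 133 CPM in controls, 50.9 to 125 CPM in untreated dcKO, 86.3 to 122 CPM in WT vehicle, 48.8 to 122 CPM in dcKO vehicle and 167 to 288 CPM with WNTi. Isl1, a defining factor of striatal and cholinergic neurons, gave 15.6, 42.0, 29.1 and 38.1 CPM with WNTi and 0.420 to 13.3 CPM in the other 15 libraries. Lhx8, a factor of the medial ganglionic eminence, gave 2.51, 12.5, 1.65 and 8.09 CPM with WNTi and at most 2.53 CPM elsewhere. Ttr, the defining transcript of choroid plexus, gave 803, 147, 448 and 4.03 CPM with WNTi and 3.14 to 120 CPM elsewhere. The summed choroid plexus list followed it, at 11.9 to 849 CPM with WNTi and at most 132 CPM in the other groups, and its factor Otx2 was the 1 gene of any marker list that passed with all libraries (WNTi against WT vehicle, adjusted p = 0.0464). Of 8 pallial glutamatergic genes, 5 fell in untreated dcKO and 5 in dcKO vehicle without the libraries in doubt. Over all genes 12.4% and 5.82% were called in these fits. Tbr1 stood at 260 to 387 CPM in all 19 libraries, and this marker of deep-layer pallial neurons was thus present in all of them. The part of tissue composition in the results on the 9 genes was not tested.

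Within groups, the 9 genes deviated together. After each library was expressed as its deviation from its group mean in log2 CPM, the 36 gene pairs had Pearson correlations of 0.483 to 0.985 over 19 libraries, with a median of 0.793. Much of this was carried by the libraries in doubt: over the other 15 the correlations ran from -0.184 to 0.91, with a median of 0.442. Untreated dcKO replicate 2 and dcKO vehicle replicate 2 had mean deviations over the 9 genes of -0.70 and -0.77, over the striatal list of -1.25 and -1.37, and over the pallial list of 0.64 and 0.76. The mean deviation of the 9 genes was correlated with that of the striatal list at 0.978 (0.862 over the 15) and of the subpallial progenitor list at 0.951 (0.891). With the GABA handling list the correlation was 0.905 (0.875), with a list of thalamic and hypothalamic genes 0.878 (0.333) and with the pallial list -0.908 (-0.547). With the interneuron factor list it was 0.59 (-0.26), and with the list of peptides and calcium-binding proteins 0.281 (0.393). Of 15211 other genes, those closest to the mean deviation were Abat, the GABA transaminase gene, at 0.977, Zfhx3 at 0.973, Zcchc12 at 0.969, Rcan3 at 0.967 and Pbx3 at 0.965. Over the 15 libraries Abat stood at 0.935 and the other 4 genes at 0.751 to 0.82. All genes of a library share its dissection and its depth. Depth differed between libraries, and the labels do not say whether dissection did.

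**Figure D3:**
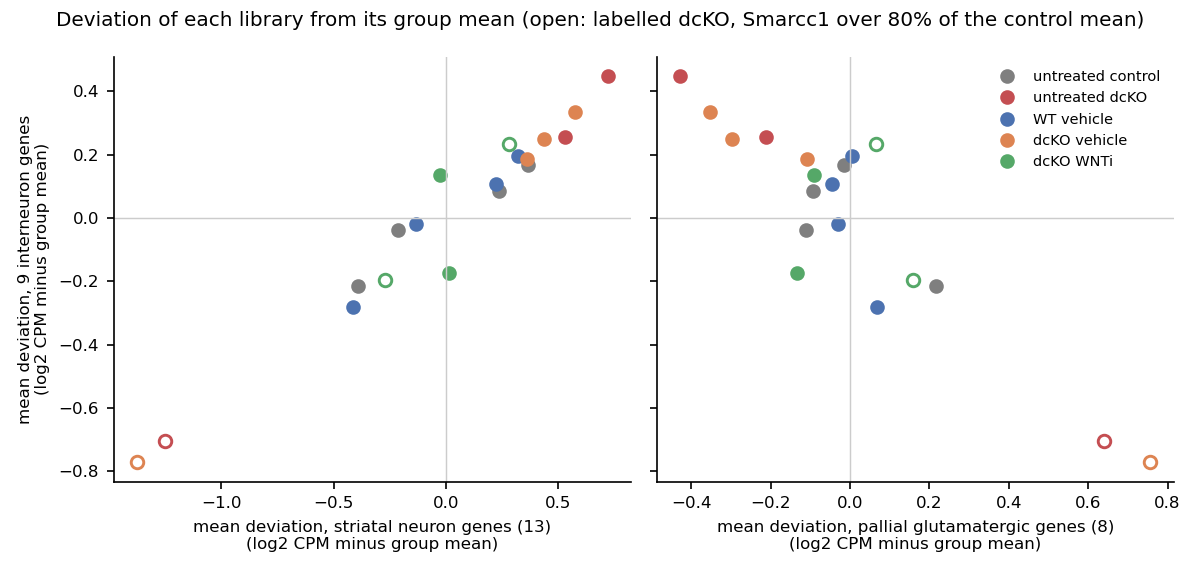
Mean deviation of the 9 genes from their group mean in log2 CPM (y axis) against that of the 13 striatal genes (left) and of the 8 pallial glutamatergic genes (right), with 1 point for each of the 19 libraries and open symbols for the 4 libraries in doubt. Untreated dcKO replicate 2 and dcKO vehicle replicate 2 stand apart, low for the 9 genes and the striatal list and high for the pallial list.

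H3K27me3 was present at the starts of all 9 genes in the pallium. A peak lay within 2000 bp of an annotated transcript start in at least 2 of the 8 libraries for 9 of 9 genes, against 26.3% of 21951 protein-coding genes, and in all 8 libraries for 5 of 9 (Gad1, Dlx1, Dlx5, Lhx6 and Nkx2-1), against 3.1%. Gad2, Dlx2 and Dlx6 had such a peak in 7 libraries and Sst in 6. The other lists of developmental genes were also high, with 12 of 13 striatal genes and 7 of 8 pallial genes at 2 or more libraries, and pan-neuronal genes at 3 of 9. The peaks, like the RNA, come from tissue of mixed cell types.

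Peaks of the 8 libraries were merged into 8 regions at the 9 genes. The Nkx2-1 region was the longest (chr12:56444813-56548831, 104019 bp), followed by Dlx5/Dlx6 (chr6:6846959-6883940, 36982 bp), Dlx1/Dlx2 (chr2:71522302-71554300, 31999 bp) and Lhx6 (chr2:36083795-36113094, 29300 bp). These 4 overlap the genes of transcription factors. The enzyme and peptide genes had shorter ones, 16018 bp at Gad1 (chr2:70558676-70574693), 11467 bp at Gad2 (chr2:22617068-22628534) and 4060 bp at Sst (chr16:23888888-23892947). A further region of 422 bp near the end of Gad1 (chr2:70600069-70600490) held a peak in 2 libraries. With over 30% of tags kept (4 libraries), peaks covered 100% of the Dlx1 and Nkx2-1 gene models and 30.8% to 32.4% of Gad1, and in the other 4 libraries 23.6% to 79.5%, 42.2% to 92.9% and 2.94% to 14.3%. At Gad1 the marked stretch lay inside the gene model, around internal transcript starts. The printed promoters of Dlx1, Dlx2, Gad2 and Sst lie inside these regions.

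**Figure D4:**
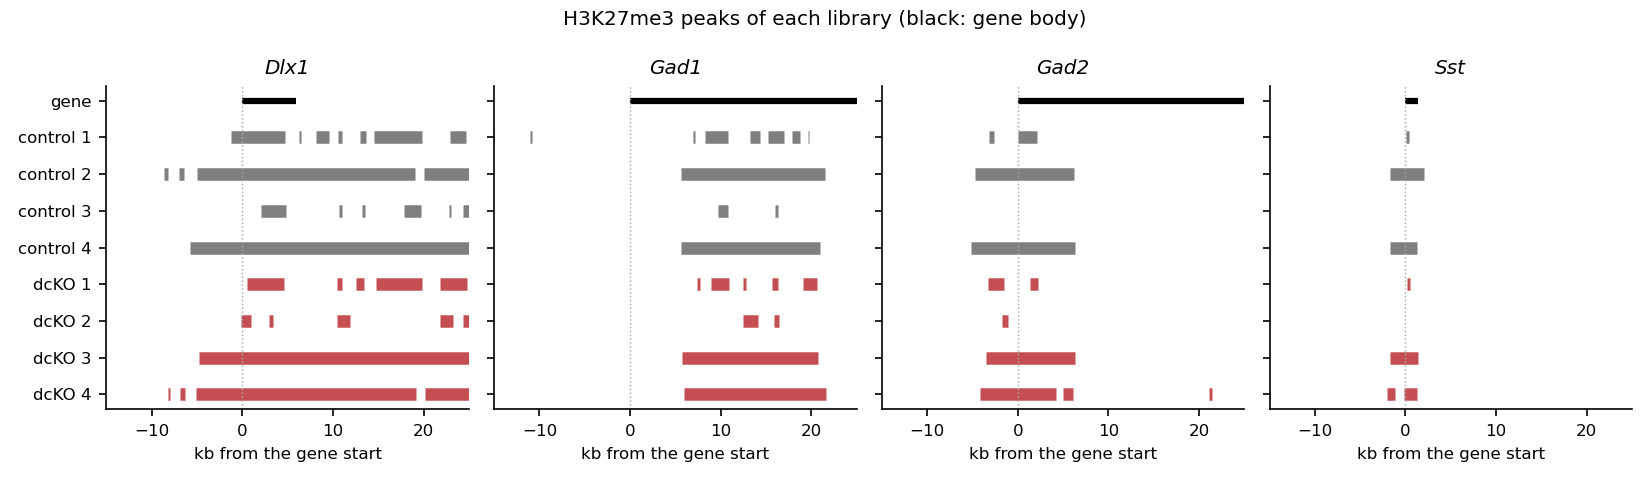
Broad H3K27me3 peaks at Dlx1, Gad1, Gad2 and Sst in each of the 8 libraries, in kilobases from the first base of the gene model in the direction of transcription. Bars are peaks, grey in controls and red in dcKO, and the black bar is the gene. Libraries that kept over 30% of their tags show 1 or a few long peaks, and the others several short ones within the same stretch. At Sst 2 libraries show no peak.

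The dcKO and control pallia did not differ detectably at these regions. The highest fold enrichment over input in the Nkx2-1 region was 8.08, 5.60, 10.2 and 5.22 in controls 1 to 4 and 12.3, 13.2, 6.02 and 11.3 in dcKO 1 to 4. At Dlx1/Dlx2 it was 15.2, 5.54, 5.68 and 5.18 in controls and 9.05, 6.17, 4.91 and 9.19 in dcKO. At Dlx5/Dlx6 it was 12.7, 5.31, 6.13 and 5.34 in controls and 12.8, 6.82, 4.96 and 8.93 in dcKO, and at Lhx6 11.3, 5.86, 7.54 and 5.50 in controls and 8.78, 7.64, 5.95 and 8.73 in dcKO. In both groups replicate 1 was among the highest at these Dlx regions. At Sst it was 4.86, 4.50 and 4.28 in controls 1, 2 and 4 and 3.85, 4.16 and 7.88 in dcKO 1, 3 and 4, with no peak in the others. At Gad2 it was 5.35, 4.61 and 4.76 in controls 1, 2 and 4, with no peak in control 3, and 5.18, 3.52, 4.89 and 7.99 in dcKO. The groups overlapped in every region. In limma, 0 of 8 regions had an unadjusted p under 0.01, against 0.009% of the 22220 regions tested, and 0 an unadjusted p under 0.05, against 0.221%. The log2 difference, dcKO minus control, was 0.65 (SE 0.79, limma adjusted p = 1.0) at Gad2, where control 3 has no peak and was set to a fold of 1, and 0.55 (SE 0.53, adjusted p = 1.0) at Nkx2-1. At the other 6 it lay between -0.03 and 0.20, with a median over all 8 regions of 0.10. With standard errors of 0.53 to 0.88 on the log2 scale, differences of that size were not detectable. The libraries differed in the share of tags kept, 32.8% to 66.5% in controls 2 and 4 and dcKO 3 and 4 against 12.3% to 18.0% in the others, and the peak counts ran from 6674 to 46000. Within these classes the difference at Nkx2-1 was 0.61 and 0.49, and at Dlx1/Dlx2 0.33 and -0.32.

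**Figure D5:**
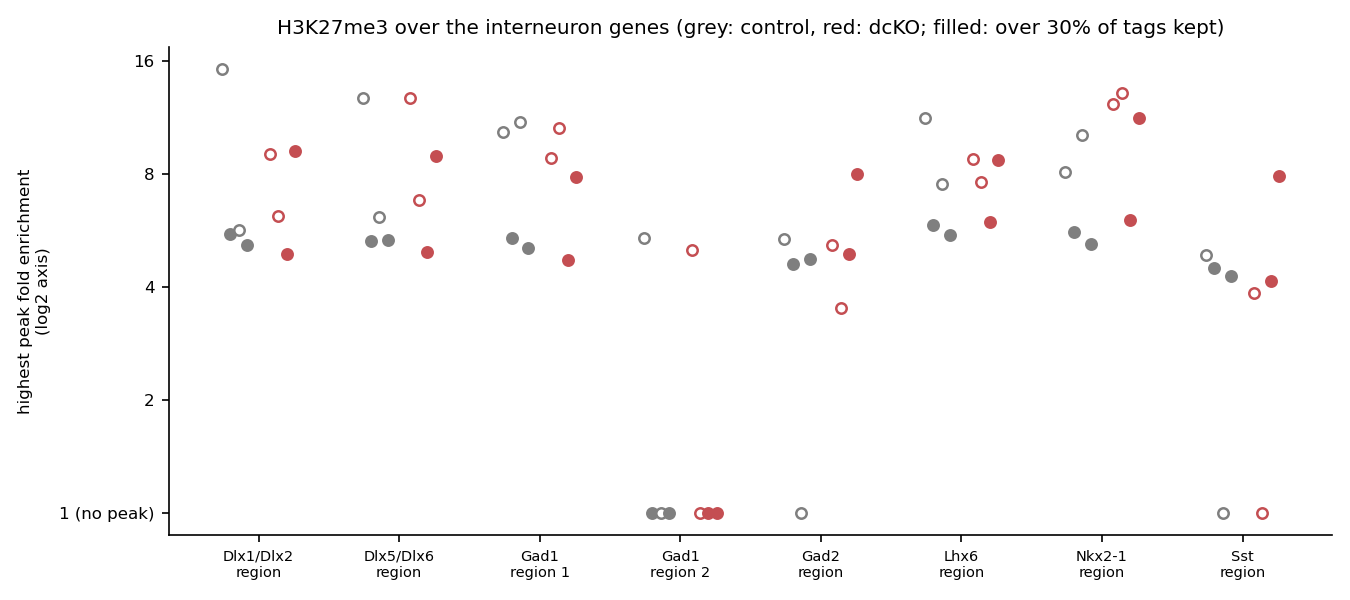
Highest fold enrichment of H3K27me3 over input in each of the 8 regions and 8 libraries, on a log2 axis, grey for controls and red for dcKO, filled where over 30% of tags were kept. Controls and dcKO overlap in every region, and libraries with no peak in a region are drawn at 1.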

How the data were processed

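RNA was sequenced from non-stranded libraries. Per the study's methods, reads were aligned by the authors with STAR on mm10, and the deposited count tables hold raw featureCounts values, 1 table per library, with other gene sets in the untreated and treated experiments. Broad H3K27me3 peaks are the authors' MACS2 calls, made per library against input at q under 0.1. The deposited lists give each peak's fold enrichment over input, its pileup (signal height) and its -log10 q-value. The 2 input libraries were not used here.

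Differences in counts were tested in edgeR 4.0.16 under R 4.3.3 (TMM, filterByExpr, robust quasi-likelihood F-test), the untreated libraries by themselves and the 12 treated libraries together. P-values were Benjamini-Hochberg adjusted over all genes tested, with calls under 0.05. DESeq2 1.42.0 was an alternative. CPM values use TMM-scaled library sizes, and log2 CPM a prior count of 2. Peaks were merged over libraries, regions with peaks in at least 2 libraries were tested with limma 3.58.1 on log2 of the highest fold enrichment (1 where a library had no peak), and DiffBind, which needs reads, was not run. Starts and genes were those of GENCODE M21. Python 3.11.15 with pandas 2.3.3 handled the tables. The scripts were tested on simulated data. The named genes are the 9 genes, the genes of each fixed list with the smallest p-values and the genes closest to them by correlation. Isl1, Lhx8, Ppp1r1b, Tbr1, Vip and Pvalb were named after their values were seen. The genes and lists were chosen with earlier results of these data known. The labels do not say whether libraries come from separate embryos, so p-values measure the spread between libraries. No replicate pair had identical counts. Results on some genes of the lists are not reported here.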

Additional observations from a re-analysis of the deposited data

Results flagged for a closer look

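In 11 of 52 groups of 4 values, 1 sample stood apart from the others by Dixon's criterion at 95%. That criterion would mark about 1 in 20 independent groups. These groups share libraries and some hold folds set to 1, so the count cannot be set against that share. Among RNA values these were Gad1 in untreated control replicate 3 (89.6 CPM, the lowest), Dlx2 in untreated control replicate 4 (33.0 CPM, the lowest) and, in dcKO vehicle replicate 2, Dlx1 (176 CPM), Dlx5 (10.5 CPM) and Sst (42.4 CPM), each the lowest of its group. The last library is one whose Smarcc1 was at 91.1% of the control mean. Among H3K27me3 values, control 1 had the highest fold enrichment at Dlx1/Dlx2 (15.2) and Dlx5/Dlx6 (12.7). In the short region near the end of Gad1 the only peaks of each group were those of control 1 (5.41) and dcKO 1 (5.01). All other values there were set to 1, and both flags follow from that. Control 3 was set apart at Gad2 and at Sst, where it had no peak and was given a fold of 1.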

How the results depend on the processing

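The libraries whose Smarcc1 went against the label decided most calls. Without them the genes called of the 9 went from 0 to 5 in untreated dcKO, from 0 to 3 in dcKO vehicle and from 0 to 5 in WNTi against WT vehicle, and the Gad1 log2 fold change turned to 0.24 in untreated dcKO and to -0.030 in WNTi against dcKO vehicle. This setting was chosen after seeing the data. Over all genes edgeR called 1 of 15770 in untreated dcKO and 1994 of 16024 without replicate 2. DESeq2 called 1 of the 9 genes in WNTi against dcKO vehicle and 4 in WNTi against WT vehicle. A fit of only the WNTi and WT vehicle groups called 1, Dlx6, with 8 of 15887 genes called higher and 0 lower. Leaving out single libraries gave 0 to 5 calls in untreated dcKO (5 without dcKO replicate 2), 0 to 1 in dcKO vehicle and in WNTi against dcKO vehicle, and 0 to 3 in WNTi against WT vehicle. The direction turned within these leave-one-out ranges for untreated Gad1 (-0.23 to 0.24), Gad2 (-0.094 to 0.27) and Dlx6 (-0.021 to 0.62), for dcKO vehicle Gad1 (-0.046 to 0.28) and Gad2 (-0.019 to 0.28), and for Sst in WNTi against WT vehicle (-0.32 to 0.13). When pileup replaced fold enrichment, the H3K27me3 difference turned to -0.17 at Gad2, -0.13 at the longer Gad1 region and -0.14 at Dlx1/Dlx2. It also turned to -0.069 at Lhx6 and -0.048 at Sst, and stayed above 0 at Nkx2-1 (0.45) and Dlx5/Dlx6 (0.027). With each gene's starts as the unit it was -0.35 at Dlx2 and -0.57 at Dlx6, and above 0 at the other genes. Leaving out single libraries also turned some differences. The cause of these changes was not tested. Within the untreated experiment same-numbered libraries correlated at -0.319 to -0.0788, and 0 of 3 were closest to their own number. Within the treated experiment the values were -0.194 to 0.428. There 1 of 4 was closest to its own number between WT and dcKO vehicle, and 2 of 4 between WNTi and either vehicle group. With the replicate number added as a block edgeR called 0 of the 9 genes in every comparison. Over all genes it called 0 of 15770 in untreated dcKO. Of 16372 genes it called 4 higher and 1 lower in dcKO vehicle, 6 and 1 in WNTi against dcKO vehicle, and 64 and 125 in WNTi against WT vehicle. A replicate block across the untreated and vehicle experiments, chosen after seeing the data, also called 0 for the difference between their dcKO effects. Other alternatives, among them size factors, filter, lane and peak settings, left every count of calls as reported. Low depth limits Nkx2-1 and Dlx6 most.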

Other observations

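Markers of diencephalon and of neurons in general were also followed, without the libraries in doubt. Of 6 thalamic and hypothalamic genes tested, 3 rose in untreated dcKO, against 5.57% of all genes called higher in that fit and 12.4% called in all: Gbx2, a thalamic factor, by 2.75 (SE 0.61), Lhx9 by 0.63 (SE 0.092) and Tcf7l2 by 0.52 (SE 0.13). None passed in dcKO vehicle, where Gbx2 stood at 1.76 (SE 0.53, edgeR adjusted p = 0.0943). Of 9 pan-neuronal genes 3 fell in untreated dcKO, in the same fit with 12.4% of all genes called: Rbfox3 by 0.53 (SE 0.074), Stmn2 by 0.40 (SE 0.074) and Dcx by 0.29 (SE 0.066). Between same-numbered untreated and vehicle libraries, the 9 interneuron genes differed by a median of 0.18 in log2 CPM and by up to 0.997, for Sst.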
